A study of Salmo salar with 48 samples.

Results

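The livers of 16 juvenile Atlantic salmon (Salmo salar) sampled at 4 weeks were compared, out of 48 fish in the series. The fish were put into groups by their labels, with 8 warm hypoxic fish (WH) set against 8 control fish (CT). This comparison was chosen with earlier results of these data known. WH fish were brought to 70% air saturation over 1 week, held there for 2 weeks, warmed from 12 to 20 °C by 1 °C per week at that oxygen level, and sampled after 4 weeks at 20 °C. CT fish stayed at 12 °C and 100% air saturation and were sampled at the same time. The WH fish came from tanks T1 and T6 and the CT fish from tanks T3 and T4, with 4 fish per tank. All the fish came from commercial brood stock of the St. John River strain. The WH group held 2 males and 6 females, and the CT group 5 males and 3 females. Temperature and oxygen differed together between these groups, so their parts cannot be told apart here, and tank is nested in treatment. DNA came from whole pieces of liver, and no marker of cell type is measured, so the cell makeup of the samples was not checked. An earlier pair of groups is also compared below, with 8 WH fish after 3 days at 20 °C and 8 CT fish of that time, from the same tanks. The series also holds warm normoxic fish (20 °C, 100% air saturation) of both times, which are not compared here. Fish of all groups entered the choice of regions and CpGs and the limma fit over all groups. Warm normoxic fish of 4 weeks also entered the limma fits on tank means.

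DNA methylation is the addition of a methyl group to cytosine, in vertebrates mostly where a cytosine is followed by a guanine (a CpG). Most CpGs of a vertebrate genome are methylated, whereas dense clusters of CpGs, often at promoters, are largely free of it. The mark is copied at cell division by maintenance methyltransferases and can be removed through oxidation by TET enzymes, which use molecular oxygen, so temperature and oxygen are of interest as conditions that could leave a trace on it in fish. In bisulfite sequencing an unmethylated cytosine is read as T and a methylated one still as C, so the share of reads that still show C, in percent, gives the methylation level of that CpG. Cytosines that escaped conversion count as methylated too, and their share was not measured here.

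The amplified DNA gave calls at 107 CpGs in 7 regions, and 94 CpGs in 6 of these regions reached the required 30 reads in all 16 fish. Positions are those of the reference sequences used in the files, whose build is not named there. Region ssa03 spans 13688232 to 13688647 of chromosome 3, with 16 CpGs. Chromosome 4 carries ssa04 (35 Mb), from 35435825 to 35436217 with 18 CpGs, and ssa04 (45 Mb), from 44947109 to 44947524 with 15. Region ssa09 lies at 121687029 to 121687311 of chromosome 9 with 8 CpGs, ssa14 at 33502562 to 33502977 of chromosome 14 with 14, and ssa16 at 37941696 to 37942102 of chromosome 16 with 23. Region ssa15, at 46698401 to 46698820 of chromosome 15 with 13 CpGs, was too shallow for levels of single CpGs. Which genes and gene parts lie there was not analysed here. The trinucleotide that starts at each cytosine was the sequence at hand, and at ssa03 it was CGC at 7 CpGs, CGT at 4, CGA at 3 and CGG at 2.

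A WH fish had 1939550 to 4082721 calls at these CpGs and a CT fish 2998859 to 3886020. The reads were unevenly spread, from a median over fish of 18.5 reads per CpG at ssa15 and 587 at ssa03 to 92999 at ssa09. The medians were 66857 for ssa04 (35 Mb), 24217 for ssa04 (45 Mb), 32473 for ssa14 and 10399 for ssa16. CT fish 108 stood apart at ssa04 (45 Mb), with a median of 59 reads per CpG. The difference, the SD and the change over time there are given with and without it. WH fish 118 and 120 had 68 and 2072 calls outside the regions, against at most 1 call in a CT fish. The calls are PCR reads and not molecules, so intervals made from reads cover counting error only, and ± below is the SD between fish (n = 8 each unless stated).

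Methylation at ssa03 was lower in WH than in CT fish, and this was the 1 region mean of 6 that passed the test. The WH mean was also lower in 3 of the other regions, without passing. It is a weakly methylated region, and its mean level was 0.560% ± 0.0948 in WH fish against 0.812% ± 0.103 in CT fish, so that the WH level was 0.689 times the CT level. Cytosines that escaped conversion are part of such low levels, and their share in either group was not measured. In WH tank T1 the fish had 0.505%, 0.376%, 0.657% and 0.584%, and in WH tank T6 0.679%, 0.590%, 0.556% and 0.530%. The CT fish of tank T3 had 0.706%, 0.847%, 0.956% and 0.784%, and those of tank T4 0.794%, 0.660%, 0.804% and 0.943%. The groups met in a single pair of fish: 7 of the 8 WH fish lay below every CT fish, and the highest WH fish, 117 of tank T6, lay above the lowest CT fish, 110 of tank T4. The difference came to -0.252 percentage points, and its 95% interval ran from -0.359 to -0.146. The two-sided exact permutation test gave p = 0.000311, or 0.00186 after Benjamini-Hochberg adjustment over the 6 regions. It takes fish as the units, although each treatment was applied to 2 tanks, and tank differences are not part of it. Of the 6 region means, 1 passed the threshold of 0.05 in this direction (16.7%), and in 0 of the 6 did the groups fail to overlap (0%).

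**Figure D1:**
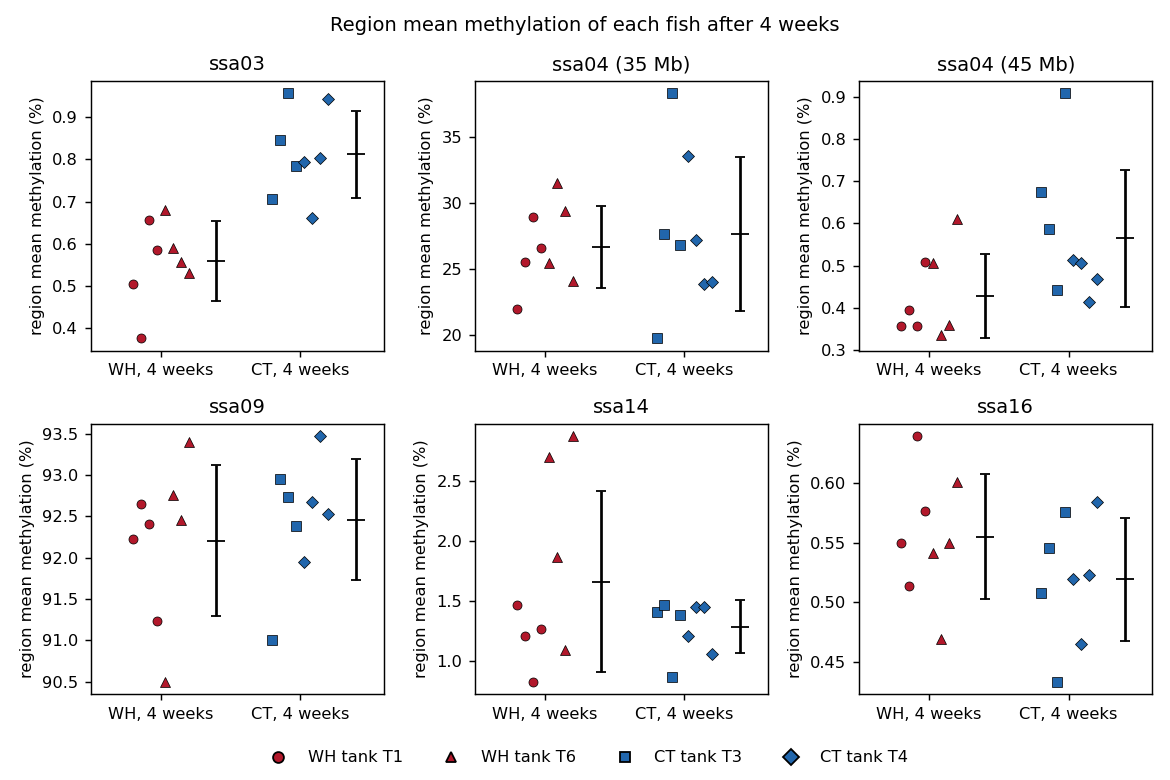
Region mean methylation in percent (vertical axes, different scale in each panel, not starting at 0) for each WH fish (red) and CT fish (blue) at 4 weeks, with symbols for tanks and black bars for the mean ± SD of 8 fish. At ssa03 the WH fish lie between 0.376% and 0.679% and the CT fish between 0.660% and 0.956%, and at ssa04 (45 Mb) 5 WH fish lie below every CT fish. In the other 4 panels at most 3 WH fish lie outside the CT range on a side.

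The counts behind these small levels were low. A WH fish had from 15 methylated calls of 2974 (fish 97) to 303 of 46229 (fish 99) over the 16 CpGs of ssa03, and a CT fish from 23 of 2935 (fish 108) to 1132 of 141163 (fish 111). Counting error alone would give an SD between fish of 0.0891 points in WH and 0.101 points in CT (root mean square over fish). The observed SDs were 0.0948 and 0.103 points. Shallow fish weigh most in the counting values. The shallowest WH fish, 97 and 118, had 0.505% and 0.590%, and the shallowest CT fish, 108 and 105, had 0.784% and 0.706%. The deepest WH fish, 99 and 119, had 0.657% and 0.556%, and the deepest CT fish, 107 and 111, had 0.956% and 0.804%. Within WH fish, the level went with the logarithm of the read depth at Pearson r = 0.51 (exact permutation p = 0.196, n = 8) and Spearman rho = 0.52 (exact p = 0.197), and within CT fish at r = 0.39 (exact p = 0.338) and rho = 0.38 (exact p = 0.360). Adjusted over these 2 relations, both Pearson p-values were 0.338 (exact permutation). Without the 2 fish farthest from the median depth, r was 0.49 in WH fish (exact p = 0.318, n = 6) and 0.20 in CT fish (exact p = 0.703, n = 6).

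The WH means were lower than the CT means in each tank and in each sex. Tank means were 0.589% ± 0.0651 (T6) and 0.531% ± 0.120 (T1) in WH fish, against 0.800% ± 0.116 (T4) and 0.823% ± 0.106 (T3) in CT fish (SD, n = 4 each). Within a treatment the tanks did not differ past the threshold (exact permutation p = 0.457 in WH and 0.743 in CT, where 0.0286 is the smallest that 4 against 4 fish allow). WH males had 0.517% ± 0.0174 (n = 2) and CT males 0.780% ± 0.113 (n = 5), and WH females had 0.574% ± 0.108 (n = 6) and CT females 0.864% ± 0.0712 (n = 3). With permutation within sex, the difference was -0.279 points (exact permutation, adjusted p = 0.00340).

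Spread over its CpGs, ssa03 was lower in WH fish at 14 of 16 CpGs, where 54 of all 94 CpGs, these 14 included, were lower (57.4%). Over the alternatives its count ran from 12 of 16 in both limma fits to 15 of 16, for example without WH fish 99. Without CT fish 108 it was 13 of 16. The median difference over its CpGs was -0.201 points, or -0.52 SDs of the fish, against -0.10 SDs over all 94 CpGs. In each WH fish, 10 to 14 of the 16 CpGs lay below the CT mean of that CpG, with 10 in fish 118 and 14 in fish 98 and 120. This was not particular to ssa03: at ssa04 (45 Mb), which did not pass, it was 9 to 14 of 15 CpGs. At ssa16 it was 10 to 14 of 23. The CT means at ssa04 (45 Mb) include fish 108, with a median of 59 reads per CpG, and the count without it is not given. The same count in CT fish is not given here. The widest differences were at 13688499, in a CGC context, with 0.535% ± 0.237 in WH and 1.24% ± 1.34 in CT fish, at 13688533 (CGG), with 0.277% ± 0.294 against 0.902% ± 0.633, and at 13688252 (CGC), with 0.677% ± 0.484 against 1.29% ± 0.853. At 13688499 the CT mean leaned on fish 105, with 12 methylated calls of 284, and without it the difference of -0.705 points was -0.278 points. The highest CpG in both groups was 13688441 (CGT), with 1.48% ± 0.409 in WH and 1.68% ± 0.587 in CT fish.

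In SDs of the fish, 13688533 differed most (-1.27) and then 13688252 (-0.88). Next came 13688501 (CGC) and 13688404 (CGT), ahead of 13688499 (-0.73). At 13688501 WH fish had 0.393% ± 0.407 and CT fish 0.659% ± 0.179, a difference of -0.85 SDs. At 13688404 WH fish had 0.332% ± 0.261 and CT fish 0.679% ± 0.539, a difference of -0.82 SDs. Those at 13688637 (CGC), with 0.396% ± 0.364 in WH and 0.840% ± 0.761 in CT fish, at 13688275 (CGC), with 0.513% ± 0.437 against 0.709% ± 0.352, and at 13688604 (CGG), with 0.539% ± 0.334 against 0.725% ± 0.356, were -0.74, -0.49 and -0.54 SDs. In WH fish 13688400 had 1.17% ± 0.729 against 1.54% ± 0.969 in CT fish. The lowest CpG of both groups, 13688266, had 0.113% ± 0.150 in WH against 0.283% ± 0.311 in CT fish. The smallest differences below 0 were -0.0877 points at 13688555, -0.0871 points at 13688374 and -0.0407 points at 13688523. At 13688232 and 13688647 the WH mean was higher, by 0.260 and 0.0430 points. Of the 128 values of a fish at a CpG, 25 were at 0 in WH and 18 in CT, and at the median depth of the shallowest fish, 184 reads in CT fish 108, a 0 allows a level of up to 1.63%. No CpG of ssa03 passed the threshold on its own, and the median Pearson r over its 120 pairs of CpGs was -0.06 (deviations of 16 fish from their group means, which share libraries and depth).

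**Figure D2:**
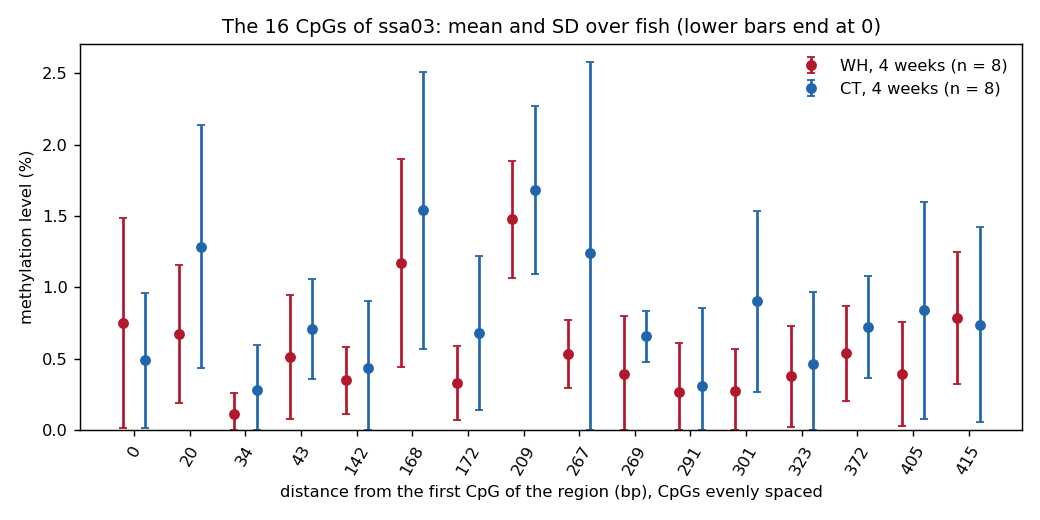
Methylation level in percent (vertical axis) of the 16 CpGs of ssa03 in genome order, labelled by their distance in bp from the first one, as mean ± SD of 8 WH fish (red) and 8 CT fish (blue). The WH mean lies below the CT mean at 14 CpGs, and the bars overlap at each of the 16.

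The region's call depended on how its CpGs were put together. The median over CpGs in place of their mean gave -0.149 points (exact permutation, adjusted p = 0.431), and limma on the average of the CpGs' M-values, log2((methylated + 1) / (unmethylated + 1)), gave a log2 difference of -0.32 with adjusted p = 0.309 over fish and 0.160 over tank means of 4 weeks. In these M-values the 1 added call is worth 0.536% of the reads of WH fish 97 and 0.543% of those of CT fish 108. Whether the added call made these fits miss the threshold was not tested. With all calls of the region summed first, limma gave a log2 difference of -0.54 with adjusted p = 0.000761 over fish and 0.0103 over tank means, alternatives that were chosen after the data were seen.

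Subtracting another region of low level within each fish, also chosen after the data were seen, gave different answers for ssa16 and ssa04 (45 Mb). With ssa16, whose mean was higher in WH fish, the groups moved apart. WH fish had 0.00441 points more at ssa03 than at ssa16 (SD 0.0926), with values from -0.138 to 0.137 points, and CT fish had 0.292 points more (SD 0.109), with values from 0.195 to 0.523. All 8 WH fish lay below all 8 CT fish. The difference was -0.288 points and its 95% interval ran from -0.399 to -0.182. The two-sided exact permutation p was 0.000155, the smallest that the 12870 splits can give. With ssa04 (45 Mb), whose mean was lower in WH fish, the groups overlapped. WH fish had 0.131 points more at ssa03 than there (SD 0.131, range -0.0809 to 0.3005) and CT fish 0.247 points more (SD 0.219, range -0.123 to 0.513). That difference was -0.116 points, with bounds of -0.309 and 0.0801 (exact permutation p = 0.219), and without CT fish 108 it was -0.169 points (exact permutation p = 0.0533). The difference at ssa03 was thus not shown to exceed that at ssa04 (45 Mb).

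The WH and CT levels of ssa03 stood otherwise at 3 days. At that time WH fish had 0.746% ± 0.187, with a range of 0.542% to 1.09%, and CT fish 0.692% ± 0.145, with a range of 0.471% to 0.866%. The difference between WH and CT fish was -0.252 points at 4 weeks and 0.0535 points at 3 days. Its change of -0.306 points gave p = 0.00253 when residuals were permuted under additive effects of treatment and time (permutation, adjusted p = 0.0152 over 6 regions). At 3 days the WH group held 5 males and 3 females and the CT group 2 males and 6 females, unlike at 4 weeks. Sex was not in that model, so its part in the change was not tested. The WH mean was lower and the CT mean higher at 4 weeks than at 3 days, and these parts were not tested on their own. In the other 5 regions the same test gave adjusted p-values of 0.358 to 0.748 (permutation). At ssa04 (45 Mb) the change was -0.0722 points, and -0.0232 points without CT fish 108.

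**Figure D3:**
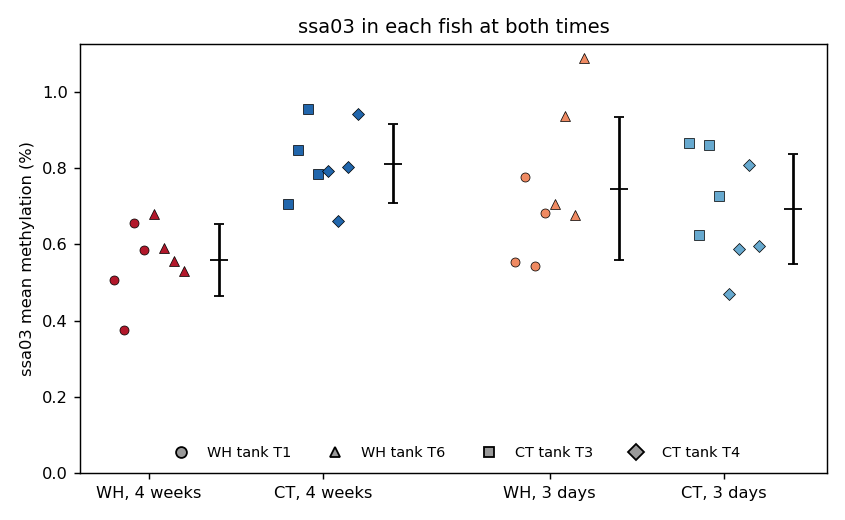
Mean methylation of ssa03 in percent (vertical axis) in each of 8 fish per group, with symbols for tanks and black bars for mean ± SD, for WH and CT fish at 4 weeks and for WH and CT fish at 3 days. The means are 0.560% and 0.812% at 4 weeks and 0.746% and 0.692% at 3 days.

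The other regions of very low methylation did not pass. Region ssa04 (45 Mb) had 0.428% ± 0.100 in WH and 0.565% ± 0.161 in CT fish, a difference of -0.136 points (exact permutation p = 0.0511, adjusted p = 0.153). In this region 5 of the 8 WH fish lay below every CT fish and 7 below the CT mean. The WH fish lay at 0.335% to 0.611%, with a median of 0.377%, and the CT fish at 0.415% to 0.908%, with a median of 0.510%. The highest CT value, that of fish 108, rests on 8 methylated calls of 878. Leaving out fish 108 gave -0.0873 points (exact permutation, adjusted p = 0.242). Without WH fish 120, the highest of its group, it was -0.162 points and passed the threshold (exact permutation, adjusted p = 0.0466).

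Along ssa04 (45 Mb), 11 of 15 CpGs were lower in WH fish, against 57.4% of all CpGs. Without CT fish 108, it was 8 of 15 here and 49 of all 94. The lowest difference was at 44947203 (CGC), with 0.425% ± 0.483 in WH and 1.14% ± 1.37 in CT fish. In WH fish this CpG ranged from 0.128% to 1.47%, and in CT fish from 0.151% to 3.78%, so a few fish of either group carried its mean. Without CT fish 108, which had 1 methylated call of 59 there, the difference of -0.716 points was -0.637 points. The highest difference was at 44947293 (CGT), with 0.428% ± 0.381 in WH and 0.253% ± 0.181 in CT fish. There WH fish 117 had 1.31% and the next WH fish 0.529%. The difference of 0.175 points was 0.139 points without CT fish 108 and as low as 0.0501 points without another single fish.

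Region ssa16, the densest in CpGs, had 0.555% ± 0.0522 in WH and 0.519% ± 0.0516 in CT fish. The difference was 0.0360 points and its 95% interval ran from -0.0199 to 0.0920 (exact permutation p = 0.189, adjusted p = 0.347). Its fish were the most alike of the low regions, at 0.469% to 0.639% in WH and 0.433% to 0.584% in CT fish. Of its 23 CpGs, 9 were lower in WH fish, against 54 of all 94. At 37941700 (CGC), the CpG with the smallest p of all 94, the WH fish ranged from 0.559% to 1.42% with a median of 0.834%, and the CT fish from 0.238% to 0.891% with a median of 0.558%. The means of 0.907% ± 0.314 in WH and 0.552% ± 0.213 in CT fish differed by 0.355 points (exact permutation p = 0.0193, adjusted p = 0.866). At 37941781 (CGG), the lowest difference of the region, WH fish had 0.330% ± 0.110 and CT fish 0.504% ± 0.291.

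The mean of ssa14 was 1.66% ± 0.755 in WH and 1.29% ± 0.223 in CT fish, which differed by 0.374 points, and the 95% interval ran from -0.201 to 0.977 (exact permutation p = 0.231, adjusted p = 0.347). In WH tank T6 the fish had 2.70%, 1.87%, 1.10% and 2.87%, and in WH tank T1 1.47%, 1.21%, 0.831% and 1.27%. CT fish lay at 0.867% to 1.47%. The 3 WH fish 117, 118 and 120, all of tank T6, were above every CT fish. The tank means were 2.13% ± 0.819 in T6 and 1.19% ± 0.266 in T1 (SD, n = 4 each, exact permutation p = 0.114, adjusted p = 0.686 over 12 tank tests), against 1.30% ± 0.193 in T4 and 1.28% ± 0.280 in T3 of CT fish. Leaving out tank T1 gave a difference of WH from CT fish of 0.844 points, which passed the threshold (exact permutation, adjusted p = 0.0424). Leaving out tank T6 gave -0.0959 points. Fish 118 and 120 are also the WH fish with calls outside the regions, and without them and CT fish 108 the difference was 0.153 points (exact permutation, adjusted p = 0.716).

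The fish of the WH group were more spread out at ssa14, with an SD 3.39 times that of CT fish. The mean distance of a fish from its group's median was 0.563 points in WH and 0.157 points in CT fish (exact permutation p = 0.0612, adjusted p = 0.367 over 6 regions), so this difference in spread did not pass. The ratio of WH to CT SDs was 0.92 at ssa03, 1.01 at ssa16 and 1.25 at ssa09. It was 0.53 at ssa04 (35 Mb) and 0.62 at ssa04 (45 Mb). All of these regions had adjusted p-values of 0.941 (exact permutation). At ssa04 (45 Mb) the SD of CT fish was 0.161 points with CT fish 108 and 0.0893 points without it. The SD of WH fish there was 0.100 points, so the smaller spread of WH fish rested on CT fish 108.

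Methylation at ssa14 was highest at the start of the region. The first CpG, 33502562 (CGT), had 5.96% ± 2.53 in WH and 5.25% ± 1.64 in CT fish, and the last, 33502977 (CGT), 0.456% ± 0.225 and 0.475% ± 0.253. At the first CpG WH fish 117, 120 and 118 had 11.2%, 7.61% and 6.83%, and CT fish reached 7.93%, so that only WH fish 117 lay above every CT fish there. At 33502613 (CGT), 51 bp on, the same fish had 6.07%, 5.74% and 4.49%, the other WH fish at most 1.55% and the CT fish at most 2.63%, so all 3 lay above every CT fish at this CpG. The next CpG, 33502632 (CGC), was carried by a single fish: WH fish 120 had 11.1%, from 7131 methylated calls of 64418, WH fish 117 had 3.47%, and every other fish of either group lay below it. There the group means were 2.33% ± 3.67 in WH and 1.08% ± 0.634 in CT fish, a difference of 1.25 points that was 0.00280 points without fish 120. Tank T6 was above both CT tanks at 12 of 14 CpGs, and tank T1 above both at 7 and below both at 7.

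**Figure D4:**
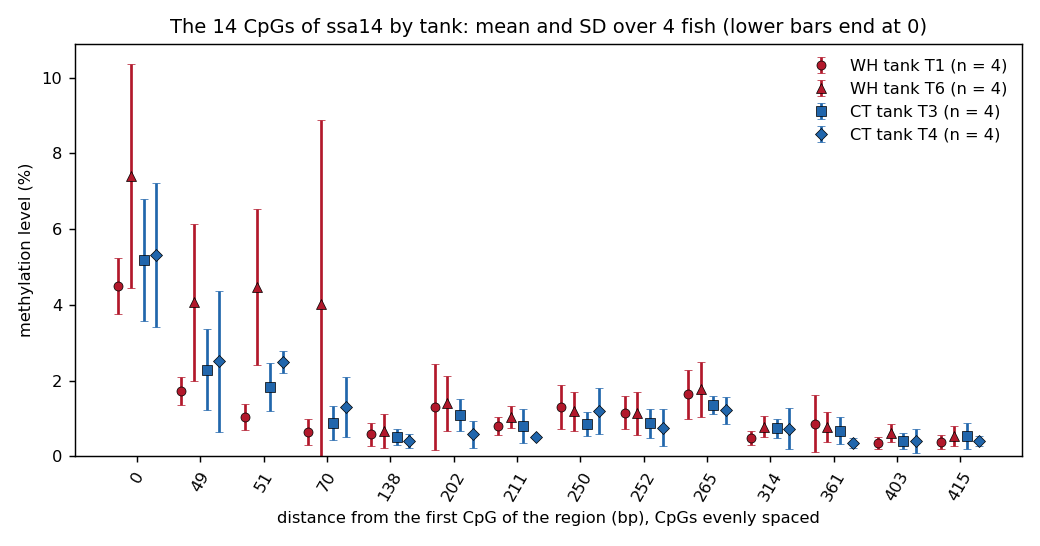
Methylation level in percent (vertical axis) of the 14 CpGs of ssa14 in genome order, labelled by their distance in bp from the first one, as mean ± SD of 4 fish for WH tanks T1 and T6 (red) and CT tanks T3 and T4 (blue). Tank T6 lies highest at the first 4 CpGs, where its means are 4.04% to 7.41%.

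Further CpGs of ssa14 were lower and closer together. At 33502773 (CGA), which has the third smallest p of the 94 CpGs, WH fish had 0.919% ± 0.269 and CT fish 0.649% ± 0.336 (exact permutation p = 0.0996, adjusted p = 0.866). At 33502876 (CGA), the lowest difference of the region, WH fish had 0.632% ± 0.267 and CT fish 0.731% ± 0.386. In all, 12 of the 14 CpGs were higher in WH fish, where 40 of all 94 CpGs were higher. Tank T1 alone lay above both CT tanks at 7 of the 14 and below both at 7.

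The intermediate region, ssa04 (35 Mb), did not differ past the threshold. Its mean was 26.7% ± 3.12 in WH fish, which ranged from 21.9% to 31.5% with a median of 26.0%, and 27.6% ± 5.86 in CT fish, which ranged from 19.7% to 38.3% with a median of 27.0%. The WH fish lay inside the range of the CT fish. The difference was -0.969 points, and its 95% interval ran from -6.04 to 3.94 (exact permutation p = 0.694, adjusted p = 0.694). Without CT fish 107, the highest of all 16, it was 0.556 points.

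The CpGs of ssa04 (35 Mb) held distinct levels that both groups shared. The highest, 35435919 (CGA), had 63.2% ± 3.81 in WH and 65.4% ± 6.70 in CT fish, and the lowest, 35436037 (CGT), 2.56% ± 0.818 and 2.63% ± 1.55. Even CpGs 2 bp apart differed, with 8.49% ± 1.96 in WH and 9.28% ± 3.69 in CT fish at 35435854 and 22.3% ± 5.98 in WH and 23.8% ± 8.54 in CT fish at 35435856. A fish that was high at one of these CpGs tended to be high at the others. All 153 pairs of CpGs had a Pearson r above 0, with a median of 0.77 and a highest of 0.97 between 35435928 and 35435956 (deviations of 16 fish from their group means, which share libraries). The largest differences were -4.08 points at 35436184 (CGA), with 35.6% ± 4.52 in WH and 39.7% ± 7.68 in CT fish, and 2.87 points at 35435961 (CGG), with 53.2% ± 8.62 in WH and 50.3% ± 12.2 in CT fish. Of the 18 CpGs, 14 were lower in WH fish, against 54 of all 94, and since they move together they are not 18 separate observations.

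The highly methylated region, ssa09, had 92.2% ± 0.916 in WH fish and 92.5% ± 0.732 in CT fish. WH fish lay between 90.5% and 93.4% and CT fish between 91.0% and 93.5%. The difference was -0.256 points, and its 95% interval ran from -1.15 to 0.638 (exact permutation p = 0.549, adjusted p = 0.658). Among its 8 CpGs, 121687311 (CGG) differed most, with 86.5% ± 2.13 in WH and 87.8% ± 1.86 in CT fish. At the opposite end, 121687058 (CGC) had 96.6% ± 1.00 in WH and 96.3% ± 0.762 in CT fish. The CpGs 121687145 and 121687148, 3 bp apart, had 86.0% ± 1.58 and 90.7% ± 1.01 in WH fish, against 85.8% ± 1.79 and 90.5% ± 1.87 in CT fish.

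Of the 94 single CpGs, 0 had an adjusted p under 0.05 by exact permutation (0%), and the groups failed to overlap at 0 of them (0%). An unadjusted exact p under 0.05 was reached by 2 CpGs (2.13%), 37941700 of ssa16 and 13688533 of ssa03 (exact permutation p = 0.0284, adjusted p = 0.866). Limma on M-values also called 0, with 6 at an unadjusted p under 0.05 over the 16 fish and 7 over all groups with tank as a random block. The differences ran from -1.27 to 1.32 SDs of the fish. By region the median ranged from -0.52 SDs at ssa03 to 0.46 SDs at ssa14.

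**Figure D5:**
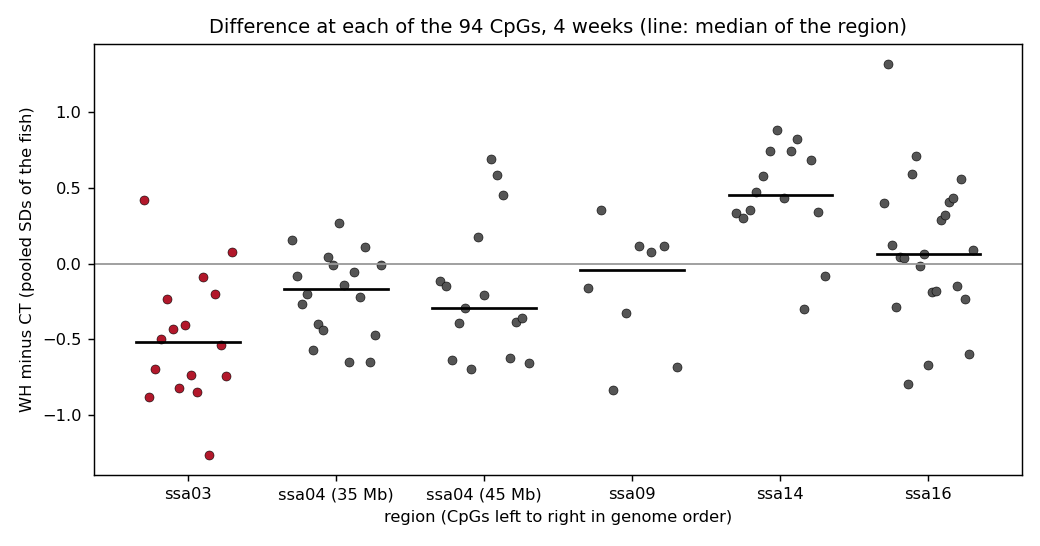
Difference of WH from CT fish at each of 94 CpGs (vertical axis, in pooled SDs of the fish), grouped by region along the horizontal axis, with a line at the median of each region and ssa03 in red. The line lies at -0.52 for ssa03 and at 0.46 for ssa14, and between -0.29 and 0.06 for the others.

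At the shallow region ssa15 the calls of all 13 CpGs were summed in each fish. Over the 5 WH and 6 CT fish with at least 100 calls, the level was 1.72% ± 0.349 in WH (range 1.34% to 2.18%) and 3.31% ± 1.71 in CT fish (range 0.643% to 5.16%). Their intervals were wide: WH fish 118 had 15 methylated calls of 816 (1.84%, 95% Wilson interval 1.12% to 3.01%) and CT fish 111 had 25 of 633 (3.95%, 2.69% to 5.77%). The difference was -1.60 points, and its 95% interval ran from -3.19 to 0.149 (two-sided exact permutation p = 0.0671). It was -0.310 points (exact permutation p = 0.811) when fish with at least 50 calls were used, which adds WH fish 119 with 4 methylated calls of 52 and CT fish 107 with 1 of 78, and -1.15 points (exact permutation p = 0.198) with at least 200 calls.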

How the data were processed

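Liver DNA was bisulfite-converted, amplified and sequenced on an Illumina MiSeq, per the labels' protocols. Bowtie2, Bismark 0.20.0, MultiQC 1.9 and Trim Galore 0.4.4 were used, per the submitters' processing notes. For the settings, duplicates, build and conversion rate, details are not given in the sources used here. Deposited values are whole-number counts of methylated and unmethylated calls per CpG, per the file headers, without normalization. All calls used were on the plus strand.

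Regions are runs of CpGs with calls in all 48 fish less than 1000 bp apart. A level needs 30 reads. A region mean is the unweighted mean over CpGs with 30 reads in at least 40 of the 48 fish, and fish weigh equally. Groups were compared by exact permutation over all 12870 splits of 16 fish, with Benjamini-Hochberg adjustment and a threshold of 0.05. Intervals come from inverting this test. The change between times used 100000 permutations of residuals. Python 3.11.15, scipy 1.17.1 and limma 3.58.1 were used, and the tests were checked on simulated counts. Alternatives were coverage minimums of 10 and 100 reads, coverage weighting, limma on M-values with a pseudocount of 1, tank means, permutation within sex, and leaving out fish, tanks or CpGs. Apart from the tank tests and the limma fits with tank means or tank as a block, p-values take fish as the units. Tank differences are not part of those p-values. Each library carries its own fish number in the labels and was counted as 1 sample. The counts of the closest pair in a group differed by a chi-square of 48.4 per CpG, which takes PCR reads as independent and so does not show that 2 libraries are separate fish.

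The text names all CpGs of a region whose mean passed, the 3 CpGs with the smallest p, and the highest and lowest difference of each other region. CpGs at the ends of a region, closely spaced ones, and those at which fish stand apart were chosen after their values were seen. The samples, regions and tests were chosen with earlier results of these data known.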

Additional observations from a re-analysis of the deposited data

Results flagged for a closer look

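In 66 sets of 8 fish (region means and named CpGs of either group), 9 had a fish far from the rest by Dixon's criterion. For normally distributed values about 1 in 20 would be flagged, and that shape was not checked here. Some CpGs were also named for their differences in these same fish, so 9 of 66 cannot be read as an excess. All 9 were single CpGs. At ssa03, WH fish 98 had 2.39% at 13688232 and WH fish 97 had 1.07% at 13688523. CT fish 109 had 1.56% at 13688232, CT fish 106 had 2.90% at 13688441, CT fish 105 had 4.23% at 13688499 and CT fish 108 had 1.63% at 13688523, where it had 3 methylated calls. At ssa04 (45 Mb), WH fish 117 had 1.31% at 44947293. At ssa14, WH fish 120 had 11.1% at 33502632, where the next WH fish had 3.47%, and CT fish 107 had 1.45% at 33502773, where the next CT fish had 0.711%. Without CT fish 107 the adjusted p of 33502773 was 0.205 (exact permutation).

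The difference of WH from CT fish at ssa03 changed by -0.306 points between the times, by the test of that change itself given above.

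Outside the regions, WH fish 120 had 2072 calls at 91 CpGs, of which 85.5% were methylated, and WH fish 118 had 68 calls at 24 CpGs, of which 61.8% were methylated, while a CT fish had at most 1. Without these fish and CT fish 108, the ssa03 difference was -0.256 points (exact permutation, adjusted p = 0.0140), while that of ssa14, where both fish are among the 3 highest, was 0.153 points, against 0.374 points with all fish.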

How the results depend on the processing

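No paired analysis was possible because every fish has its own number. The ssa03 difference kept its direction in all alternatives and missed the threshold in 5: after subtracting ssa04 (45 Mb) in the same fish (-0.116 points, and -0.169 points without CT fish 108), with the median over CpGs (-0.149 points), and with limma on averaged M-values over fish and over tank means (both -0.32 log2). Without each fish in turn it ran from -0.274 to -0.226 points (adjusted p at most 0.00466), and without each tank from -0.281 to -0.223 points (adjusted p at most 0.0364). At the other regions, leaving out each fish gave -2.10 to 0.556 points at ssa04 (35 Mb), -0.162 to -0.0873 at ssa04 (45 Mb), -0.463 to -0.0123 at ssa09, 0.202 to 0.493 at ssa14 and 0.0237 to 0.0483 at ssa16. The ssa14 difference passed without WH tank T1 (0.844 points) and turned round without T6 (-0.0959 points). The causes were not tested. The number of CpGs past the threshold was 0 in all alternatives.

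The difference in spread passed at ssa14 without WH tank T1 (0.495 points). It changed sign without WH tank T6 at ssa03 (0.0143), ssa09 (-0.0968) and ssa16 (0.000133), and without CT tank T3 at ssa04 (45 Mb) (0.0425) and ssa16 (0.00611).

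Single CpGs that changed sign were not past the threshold in any setting. Without WH tank T1 the value was -0.0337 points at 13688232, 0.0686 at 13688441, 0.0653 at 13688555 and 0.0484 at 33502876. Without WH tank T6 it was 0.0471 at 13688523, -0.0631 at 13688647, -1.62 at 35435961 and -0.450 at 33502632. Without CT tank T3 it was 0.109 at 13688523 and -0.220 at 13688647, and without CT tank T4 0.224 at 13688555. At 13688523 it was 0.0361 with coverage weighting, 0.0997 within sex and 0.25 log2 in both limma fits, and at 13688555 0.015 log2 in both. Without fish 108, 118 and 120 it was 0.193 at 13688523, -0.0121 at 13688647 and -0.423 at 35435961. Leaving out single fish gave ranges that crossed 0 at 13688374 (-0.150 to 0.0516), 13688523 (-0.155 to 0.148), 13688555 (-0.183 to 0.0221), 13688647 (-0.0627 to 0.253), 35435961 (-0.256 to 5.87) and 33502876 (-0.176 to 0.00505). Other differences kept their sign but moved widely: 13688400 ran from -0.550 to -0.0977, 37941781 from -0.211 to -0.0921, 44947293 from 0.0501 to 0.220 and 121687058 from 0.124 to 0.561.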
